A study of Mus musculus with 8 samples.

Results

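MiRs that mark liver, brain, pancreatic islets or epithelia were followed in the murine fracture callus as a measure of material from outside the callus. They were chosen by a rule on their names that uses no signal, but with earlier results of these data known. The rule gave the guide arms mmu-miR-122-5p (liver), mmu-miR-9-5p and mmu-miR-124-3p (brain), mmu-miR-375-3p (pancreatic islet) and mmu-miR-141-3p, mmu-miR-200a-3p, mmu-miR-200b-3p, mmu-miR-200c-3p and mmu-miR-429-3p (epithelium), written without the prefix below. All 9 were present on the arrays, among 1079 murine miRs. CD-1 mice of both sexes received a femoral osteotomy stabilised with an intramedullary pin and a clip. The Union group had a gap of 0.25 mm. The Nonunion group had a gap of 1.8 mm and, in addition, the periosteum was stripped off on either side. Callus was harvested on day 7 from 4 mice per group (Nonunion P13 to P16, Union P17 to P20), and total RNA including miRs was hybridised with 1 dye to the 8 arrays of 1 slide. The labels name no genetic change or drug treatment for either group, and gap size and loss of the periosteum cannot be told apart.

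A miR is a short RNA that guides the silencing complex to complementary messenger RNAs, mainly through its seed, bases 2 to 8. MiR-122-5p is the dominant miR of hepatocytes and appears in plasma after liver damage. MiR-9-5p acts in neural progenitor cells and neurons, and miR-124-3p is the abundant neuronal miR. MiR-375-3p is made by islet cells and regulates insulin secretion. The miR-200 family, which includes miR-141 and miR-429, keeps epithelial cells in their state by repressing the transcription factors Zeb1 and Zeb2. The harvested callus holds mesenchymal, cartilage and blood cells and may include adjacent muscle. The marker miRs are best known from the other tissues named above, and whether cells of the callus made them was not tested.

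The mature sequences of the epithelial miRs and of the miR-9 arms are shown because they define which miRs share a seed and which come from the same hairpin or cluster (RefSeq, GRCm38.p6, 5′ to 3′, seed in capitals). Entries for 6 of the 9 marker miRs were used.
miR-141-3p: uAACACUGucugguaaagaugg
miR-200a-3p: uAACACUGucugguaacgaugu
miR-200b-3p: uAAUACUGccugguaaugauga
miR-200c-3p: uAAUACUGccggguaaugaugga
miR-429-3p: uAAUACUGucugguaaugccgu
miR-9-5p: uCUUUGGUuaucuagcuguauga
miR-9-3p: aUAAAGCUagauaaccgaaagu

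MiR-141-3p and miR-200a-3p share the seed AACACUG, and miR-200b-3p, miR-200c-3p and miR-429-3p share the seed AAUACUG. Counted from the 5′ end, C4U separates the seed of the first pair from that of the other three. Outside the seed, miR-141-3p and miR-200a-3p differ by A17C and G22U, and miR-200b-3p and miR-200c-3p by U11G and A22G with 1 additional base at the 3′ end of miR-200c-3p. The genomic order cuts across the seeds. MiR-141-3p (chr6:124717917-124717938) and miR-200c-3p (chr6:124718324-124718346) are neighbours on the minus strand and lie in no other annotated gene. MiR-429-3p (chr4:156053916-156053937), miR-200a-3p (chr4:156054911-156054932) and miR-200b-3p (chr4:156055685-156055706), also on the minus strand, lie within the long noncoding RNA gene Gm13648. MiR-9-5p has identical copies on the plus strand of chr3:88215613-88215635 (Mir9-1), chr13:83738821-83738843 (Mir9-2) and chr7:79505279-79505301 (Mir9-3), so that its signal cannot be assigned to a gene.

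Each miR was measured by 40 spots per array. The scanner software called a miR detected when the signal of at least 1 of its probes exceeded 3 times its error, and this held for 8632 of 8632 pairs of a murine miR and an array. Per array, 324 to 391 murine miRs were detected (350.5 ± 18.4 in the Nonunion group and 373.5 ± 15 in the Union group, SD, n = 4, exact permutation p = 0.114). The summed signal ranged from 183589 to 360063 units (exact permutation p = 0.229). The uncorrected signal of the negative control spots was higher in the Nonunion group (52.7 ± 1.82 units) than in the Union group (47.2 ± 0.445 units, SD, n = 4, exact permutation p = 0.0286), and since the Nonunion arrays shared 1 slide row and the Union arrays the other, row and group cannot be told apart. For 4 arrays against 4, the 70 possible arrangements allow no two-sided p below 0.0286.

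The marker miRs were rarely detected in the callus. Of 72 pairs of a marker miR and an array, 7 were detected and 65 were not, against 2896 detected of 8632 pairs over all murine miRs. None of the 9 was detected on all arrays, whereas this applied to 28.7% of all murine miRs. On at least 1 array, 4 of the 9 were detected (miR-122-5p, miR-9-5p, miR-141-3p and miR-200c-3p), near the background of 39.1%. On no array were miR-124-3p, miR-375-3p, miR-200a-3p, miR-200b-3p and miR-429-3p detected, as was the case for 60.9% of all murine miRs. P20 of the Union group had 3 of the 9 detected, near the 33.5% of all murine miRs detected on P20. P13, P14, P15 and P17 had 1 each, and P16, P18 and P19 had 0. Over all murine miRs, the share detected per array was 30.0% (P16) to 36.2% (P17). The 15 miRs on the arrays listed as callus markers (skeletal muscle, cartilage, mesenchyme, blood and marrow) were all detected on all 8 arrays. This list was chosen with earlier results of these data known, so its detection is no independent contrast to the marker miRs. The labels name only callus, and whether the muscle miRs came from adjacent muscle was not tested.

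**Figure D1:**
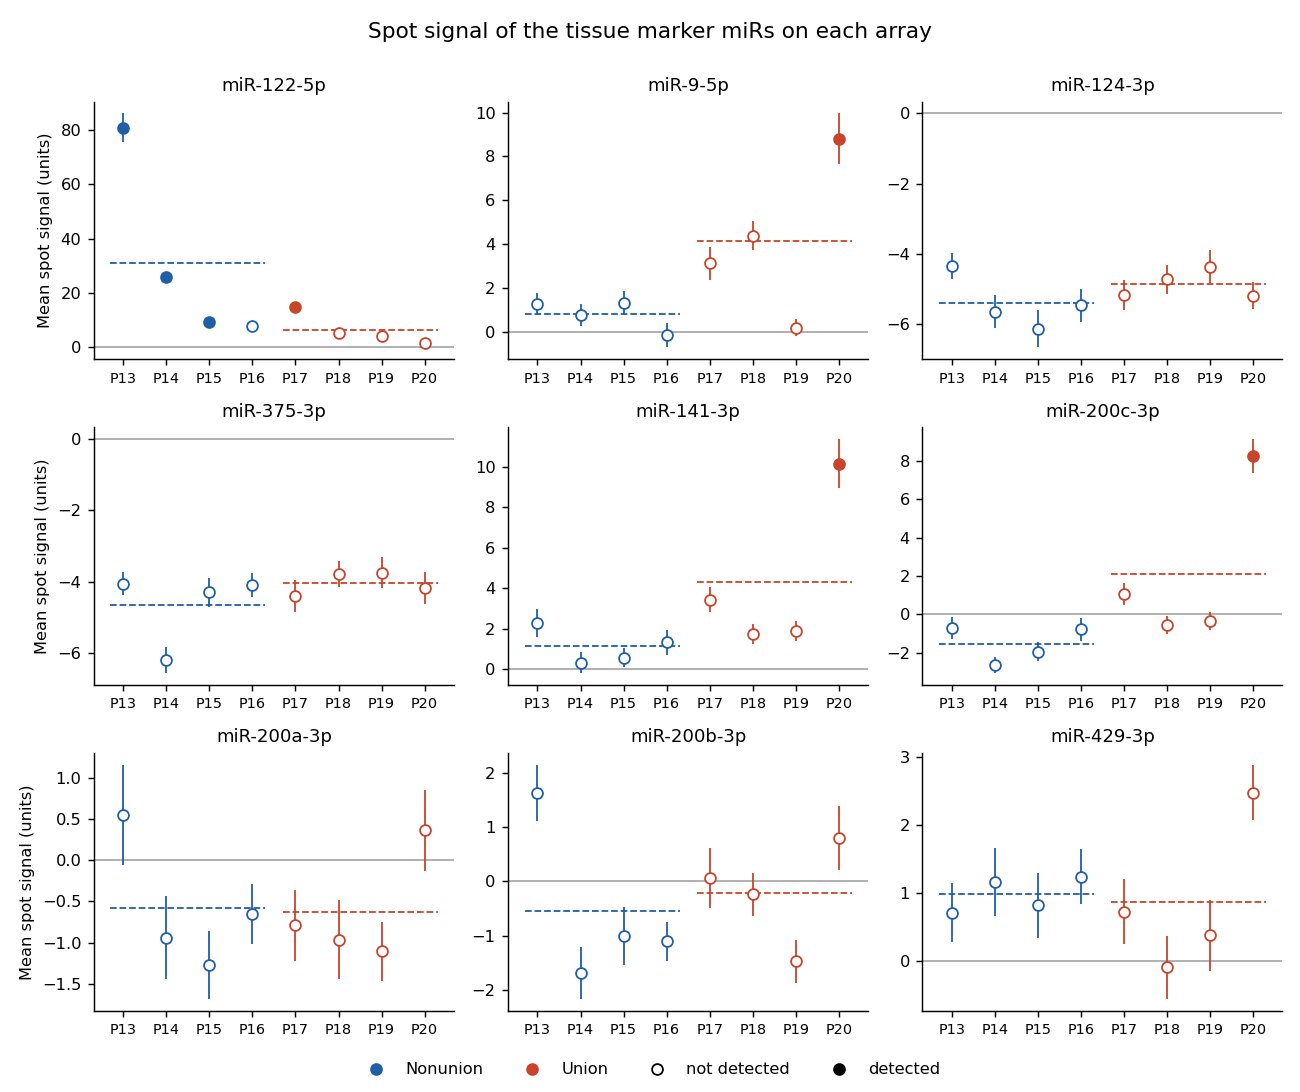
Mean background-corrected spot signal of each of the 9 marker miRs in units (y axis, own scale per panel) on the arrays P13 to P20 (x axis), with the SE over the spots of the array as bars and the group mean of 4 arrays as a dashed line. Filled points were detected and open points were not. MiR-122-5p falls within each group, from 80.7 units on P13 to 7.97 on P16 and from 14.8 units on P17 to 1.53 on P20. MiR-9-5p, miR-141-3p and miR-200c-3p are filled on P20 only.

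MiR-122-5p, the liver marker, was the marker miR with the most detected arrays, 3 of 4 in the Nonunion group and 1 of 4 in the Union group (two-sided Fisher's exact test, p = 0.486). Its merged signal was 62.0 units on P13, 20.1 on P14 and 5.28 on P15 of the Nonunion group and 8.64 on P17 of the Union group, and it was not detected on P16, P18, P19 and P20. The mean spot signal, which is also given where the miR was not detected, was 80.7 ± 5.34, 25.8 ± 1.84, 9.18 ± 0.865 and 7.97 ± 0.776 units on P13 to P16 and 14.8 ± 1.35, 5.41 ± 0.671, 4.30 ± 0.547 and 1.53 ± 0.438 units on P17 to P20 (SE over the spots of 1 array). P13 stood far above all other arrays, the lowest Nonunion arrays lay below P17, and the groups thus overlapped.

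The group means of miR-122-5p were 30.9 ± 34.2 units in the Nonunion group and 6.51 ± 5.77 units in the Union group (SD, n = 4). The difference of 24.4 units was smaller than the SD of the Nonunion group and did not pass the exact permutation test (p = 0.143). Without P13, the difference was 7.80 units (exact permutation p = 0.286). In the limma fit over all 1079 murine miRs, the log2 difference was 0.37 with an SE of 0.19 and a 95% interval of -0.08 to 0.83 (limma, adjusted p = 0.420). The interval included 0. The size of the log2 difference differed between settings. It was 2.23 with processed signals plus 1 (limma p of 0.0254, adjusted p = 0.497) and 1.39 in the authors' value table (limma p of 0.0207, adjusted p = 0.279). Without P13 it was 0.17 (limma p of 0.0336, adjusted p = 0.424).

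The strength of the signal behind the 4 detection calls of miR-122-5p differed. On P13 and P14 both probes passed their limit, and 40 and 26 of the 40 spots were well above background. On P17 only the brighter probe passed, with 16 such spots. On P15 the brighter probe had 5.28 units against a limit of 4.35 with 0 such spots, and on P16 the same probe had 4.38 units against a limit of 4.66 and was not called. Thus P15 lay just inside and P16 just outside the limit, with spot signals of 9.18 and 7.97 units. The spot signal of miR-122-5p exceeded the mean of the negative control spots on 6 of 8 arrays, P19 and P20 being the exceptions.

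**Figure D2:**
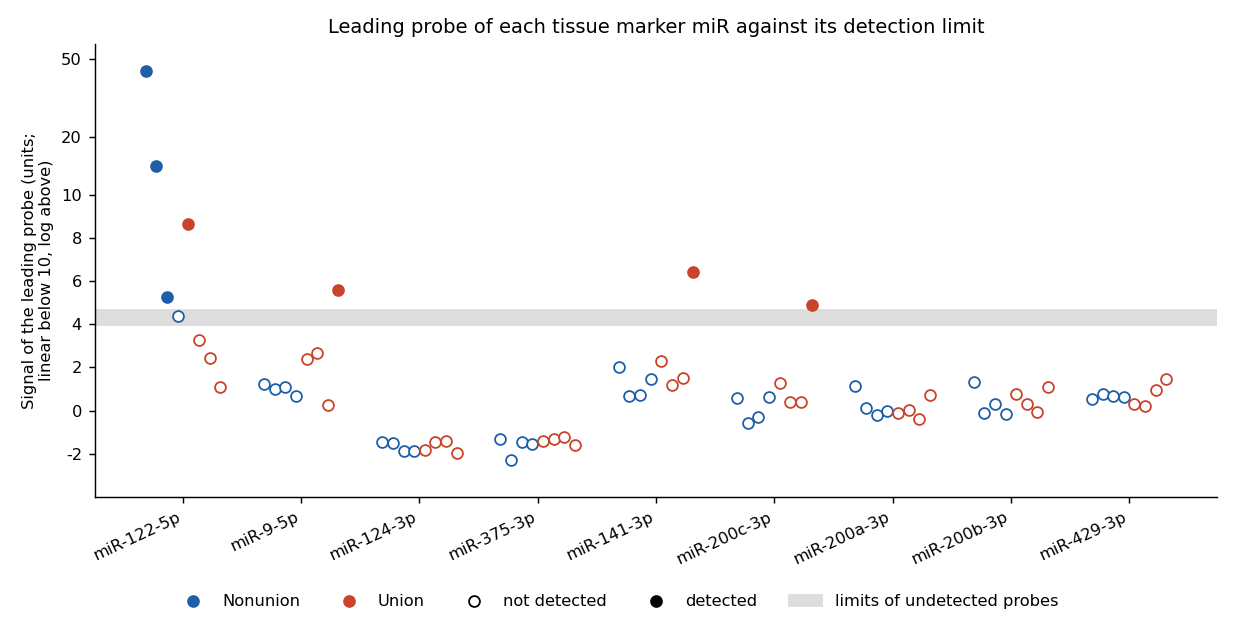
Signal of the leading probe of each marker miR in units (y axis, linear below 10 and logarithmic above), 8 arrays per miR in the order P13 to P20. The grey band spans the limits of the probes that were not called, 3.98 to 4.66 units. Filled points were detected, and the open miR-122-5p point at 4.38 units, on P16, lies inside the band because its own limit was 4.66 units.

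The signal of miR-122-5p fell with the position of the arrays on the slide. P13 to P16 occupied columns 1 to 4 of the first row and P17 to P20 columns 1 to 4 of the second row. In each row the spot signal fell from column to column, and in each of the 4 columns the Nonunion array was higher than the Union array. The only column with the miR detected on both arrays was column 1 (80.7 against 14.8 units, 5.45 times). In columns 2 and 3 only the Nonunion array was detected, and in column 4 neither was. A fall along the columns in both rows was seen in 8 of 1079 murine miRs (0.741%) and in 4 of the 422 detected on at least 1 array (0.948%). Within columns, the exact sign-flip permutation test gave p = 0.125 for miR-122-5p, the smallest two-sided value that 4 pairs allow. MiR-141-3p and miR-200c-3p had the same p in this test, with the Union array higher in all 4 columns. The share of all murine miRs with the same group higher in every column was not determined. With the column as a block, the limma p of the log2 difference of 0.37 in miR-122-5p was 0.0716 (adjusted p = 0.298). The specimen numbers ran in the same order as the columns, so that column and order of the specimens cannot be told apart, and the part of either was not tested.

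**Figure D3:**
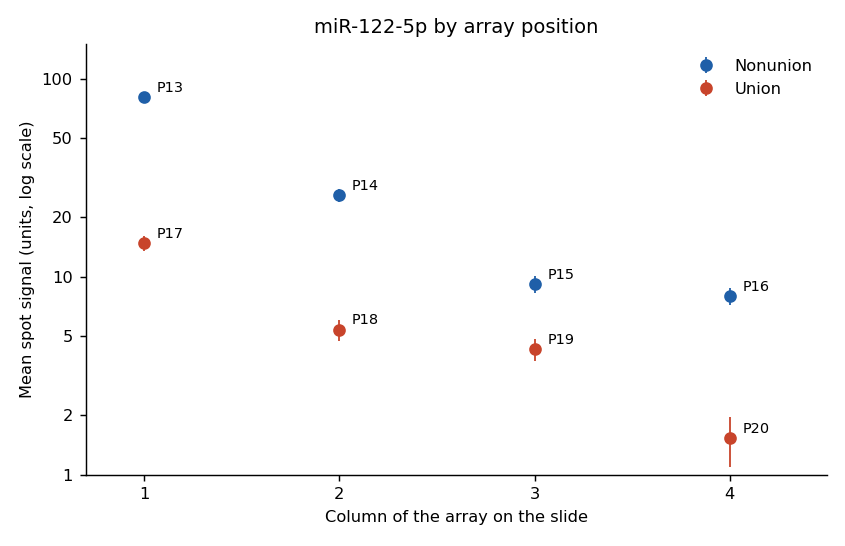
Mean spot signal of miR-122-5p in units (y axis, log scale) by column of the array on the slide (x axis), with the SE over the spots as bars. Nonunion arrays filled row 1 and Union arrays row 2. Both groups decline from column 1 to column 4, and the Nonunion array lies higher in every column.

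The brain markers split into one that was detected on a single array and one that was detected nowhere. MiR-9-5p had a merged signal of 5.61 units on P20, where its leading probe passed the limit of 4.65 units and 3 of 40 spots were well above background. Its mean spot signal was 1.26, 0.772, 1.32 and -0.154 units on P13 to P16 and 3.12, 4.39, 0.181 and 8.81 units on P17 to P20. P17, P18 and P20 were higher than all Nonunion arrays and P19 was not, so that the groups overlapped. The difference of -3.32 units (Nonunion 0.800 ± 0.682, Union 4.12 ± 3.59, SD, n = 4) did not pass the exact permutation test (p = 0.114), and it was -1.76 units without P20 (exact permutation p = 0.2). MiR-124-3p lay between -6.13 and -4.35 units, below the mean of the negative control spots on all 8 arrays, with no spot well above background. Its group means of -5.40 ± 0.754 units (Nonunion) and -4.86 ± 0.398 units (Union, SD, n = 4) did not differ beyond their spread (exact permutation p = 0.257). Without P13 the difference of -0.885 units, between values below the negative controls, had an exact permutation p of 0.0286. With all arrays, 11.4% of all murine miRs passed this test, and their share without P13 was not determined.

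The other arm of the miR-9 hairpin, miR-9-3p, was also detected on P20 only, with a merged signal of 12.9 units, both probes over their limit and 13 of 40 spots well above background. Its mean spot signal was 0.698, -0.0343, 0.511 and 0.263 units on P13 to P16 and 4.93, 5.94, -0.216 and 17.03 units on P17 to P20. P20 was the highest array for either arm of miR-9. The values of P17 and P18, also above those of the Nonunion arrays, were below the limit of detection for either arm, and the arms were not compared by a test. The difference of -6.56 units in miR-9-3p (Nonunion 0.359 ± 0.317, Union 6.92 ± 7.26, SD, n = 4) did not pass the exact permutation test (p = 0.143). Without P20 it was -3.19 units (exact permutation p = 0.143). P19 was the only Union array not above all Nonunion arrays for either arm, so that leaving it out fixed the outcome in advance. The groups of either arm then did not overlap (exact permutation p = 0.0286). This was then the case, with the Union group higher, for 14.5% of all murine miRs. MiR-9-3p was the only one of the 9 partner arms detected on any array.

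The islet marker miR-375-3p was detected on no array. Its mean spot signal ranged from -6.20 units on P14 to -3.74 units on P19, and it lay below the mean of the negative control spots on all 8 arrays. The group means of -4.66 ± 1.03 and -4.03 ± 0.312 units (SD, n = 4) did not differ beyond their spread (exact permutation p = 0.286).

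Detection of the 5 epithelial miRs was limited to P20 by the calls of the software. The pair on chromosome 6, miR-141-3p and miR-200c-3p, was detected on P20, whereas the 3 miRs of the cluster on chromosome 4, miR-200a-3p, miR-200b-3p and miR-429-3p, were detected on no array. Each miR of the chromosome 6 pair shares its seed with a miR of chromosome 4 that was not detected. P20 was nevertheless the highest or second highest array for all 5. These are calls on 1 array from 1 mouse, and they changed with the rule. With at least 1 spot well above background as the rule, miR-200a-3p (P16 and P17) and miR-200b-3p (P13 and P17) counted as detected too, and with at least 20 spots no epithelial miR did. The shares of all murine miRs detected by these rules were not determined.

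MiR-141-3p had a merged signal of 6.41 units on P20, with a leading probe over its limit of 4.75 units and 6 of 40 spots well above background. Its mean spot signal was 2.27, 0.319, 0.569 and 1.31 units on P13 to P16 and 3.42, 1.74, 1.89 and 10.14 units on P17 to P20. P13 was higher than P18 and P19, and the groups overlapped. The difference of -3.18 units (Nonunion 1.12 ± 0.877, Union 4.30 ± 3.97, SD, n = 4) did not pass the exact permutation test (p = 0.0857). Without P20 it was -1.23 units (exact permutation p = 0.171), and with the median over the spots it was -3.16 units and passed (exact permutation p = 0.0286). The share of all murine miRs that passed with this median was not determined.

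MiR-200c-3p had a merged signal of 4.89 units on P20, just over the limit of 4.56 units, with 1 of 40 spots well above background. Its mean spot signal was -0.732, -2.65, -1.95 and -0.781 units on P13 to P16 and 1.06, -0.555, -0.324 and 8.25 units on P17 to P20. It was the only marker miR whose groups did not overlap, with -0.732 units on the highest Nonunion array and -0.555 units on the lowest Union array. The difference of -3.64 units (Nonunion -1.53 ± 0.936, Union 2.11 ± 4.16, SD, n = 4) had the smallest exact permutation p that 4 arrays against 4 allow (p = 0.0286). Of all murine miRs, 10.8% were likewise higher in the Union group without overlap and 0.556% higher in the Nonunion group, and 11.4% had such a p in either direction, so that 1 of 9 marker miRs was near the background. Without P20, the difference was -1.59 units (exact permutation p = 0.0857), and leaving out any single Nonunion array left -3.26 to -3.90 units (exact permutation p of 0.114 to 0.143). The groups still did not overlap in these settings. The exact permutation p stayed at 0.0286 without P17, P18 or P19 (-3.99, -4.52 and -4.45 units). It also stayed there after subtracting negative controls (-4.32 units) and with outlier spots kept (-4.19 units). With the median over the spots, the difference was -3.35 units (exact permutation p = 0.0857). With the median signal minus the local background of each spot in place of the processed signal, the difference was -0.03 units (exact permutation p = 1.0). Except on P20, miR-200c-3p lay below the mean of the negative control spots, whose uncorrected signal itself differed between the groups as given above. The part of this background in the difference was not tested.

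The 3 undetected miRs of chromosome 4 stayed close to 0. MiR-200a-3p ranged from -1.27 to 0.549 units, miR-200b-3p from -1.69 to 1.63 units and miR-429-3p from -0.0899 to 2.48 units. All lay below the mean of the negative control spots on all 8 arrays. The differences of 0.0466, -0.326 and 0.111 units in this order were smaller than the SD within either group (exact permutation p of 0.857, 0.714 and 0.857).

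Over the 65 undetected pairs of a marker miR and an array, the leading probe ranged from -2.29 to 4.38 units, and 9 of 2600 spots were well above background. In 56 of these pairs, no spot was. A signal under these limits was not detectable on these arrays, which does not show that the miR was absent.

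**Figure D4:**
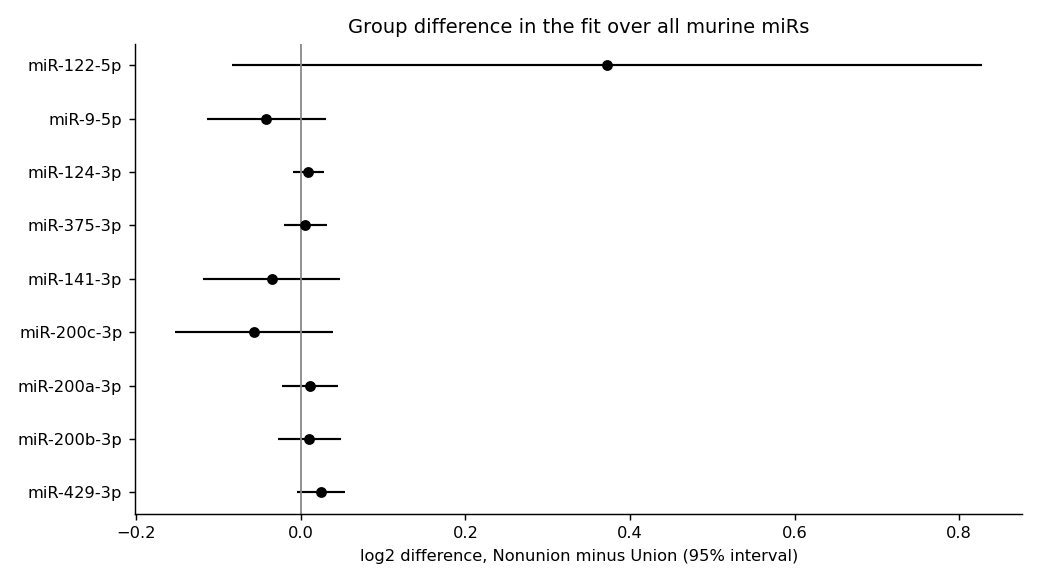
Log2 difference, Nonunion minus Union (x axis), of the 9 marker miRs (y axis) in the limma fit over all 1079 murine miRs, with the 95% interval as bars. All 9 intervals include 0. The wide bar of miR-122-5p runs from -0.08 to 0.83, and the offset of 50 units compresses the differences of miRs near background.

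No marker miR could be compared by the filter of the study's methods, which keeps miRs detected in all samples. Of the 310 miRs that passed this filter, 13.9% had a limma p under 0.05 and 0.323% an adjusted p under 0.05. In the limma fit without a filter, 0 of the 9 marker miRs had an unadjusted p under 0.05, against 13.6% of the 1079 murine miRs, and none of the 1079 had an adjusted p under 0.05. The log2 differences of the 8 marker miRs other than miR-122-5p lay between -0.06 (miR-200c-3p, SE 0.04, limma, adjusted p = 0.514) and 0.02 (miR-429-3p, SE 0.01, limma, adjusted p = 0.410).

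P20 was also set apart among the Union arrays by miRs of blood cells. MiR-223-3p, which marks neutrophils and other myeloid cells, had a merged signal of 12898 units on P20 and 3276 to 3721 units on the other Union arrays. MiR-142-3p, which is found in all blood cell lineages, had 6822 units on P20 and 1742 to 2372 units on the other Union arrays. MiR-451, the red blood cell miR, had 2881 units on P20, the lowest value of the Union group. In these bulk samples, more cells of a type and more RNA per cell cannot be told apart, and the part of these cells in the marker signals of P20 was not tested. P20 and P18 each held 7 of the 22 murine miRs that were detected on a single array. The 7 of P20 were miR-9-5p, miR-141-3p, miR-200c-3p, miR-9-3p, miR-301b-3p, miR-30d-3p and miR-467d-3p, and none of the 7 of P18 was a marker miR.

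**Figure D5:**
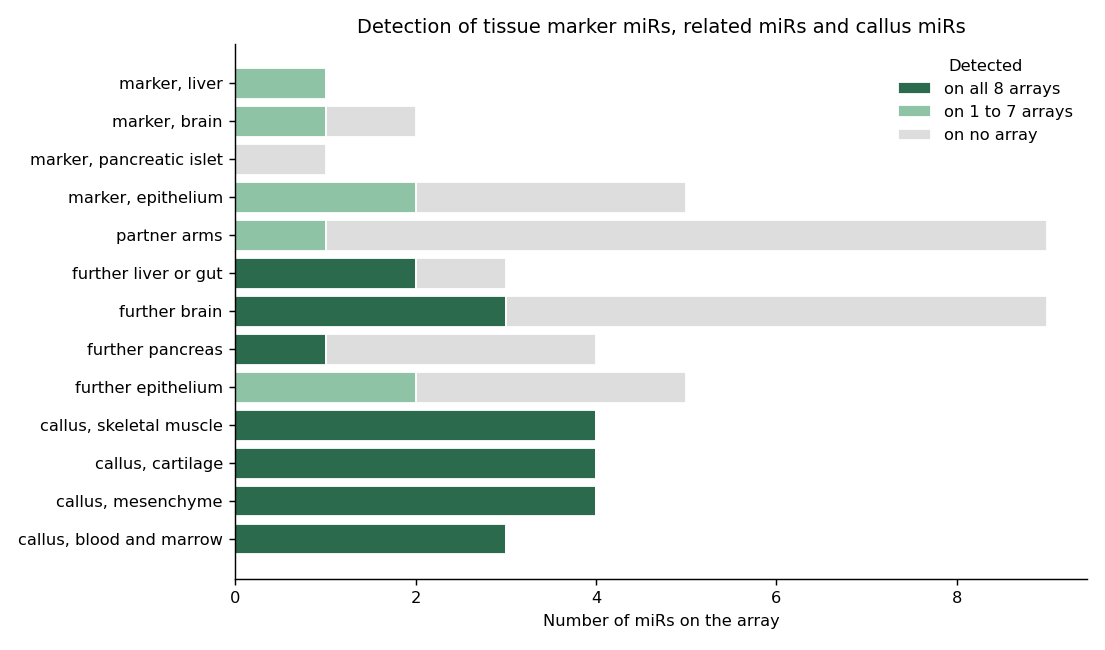
Number of miRs (x axis) detected on all 8 arrays, on 1 to 7 arrays or on no array, for the marker miRs by tissue, their partner arms, further miRs of the same tissues and the callus markers (y axis). All callus bars are detected on all arrays, while the marker and partner bars hold no miR detected on all arrays.

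Of 21 further miRs of the same tissues, 6 were detected on all 8 arrays, 2 on some and 13 on none, which was near the shares over all murine miRs (28.7% on all arrays and 60.9% on none). The 6 were miR-192-5p and miR-194-5p (liver, gut and kidney), miR-128-3p, miR-218-5p and miR-219-5p (brain) and miR-7a-5p (islet and neuroendocrine cells), and none had an unadjusted limma p under 0.05. MiR-192-5p had merged signals of 9.28 to 22.3 units in the Nonunion group and 16.9 to 32.4 units in the Union group, and its log2 difference after quantile normalization was -0.09 (SE 0.31). MiR-194-5p, which is transcribed together with miR-192, had 4.85 to 8.77 units in the Nonunion group and 6.66 to 12.2 units in the Union group, and its log2 difference of 0.19 after quantile normalization (SE 0.37) had the opposite direction to these signals. The highest array was P20 for miR-192-5p, miR-194-5p, miR-218-5p (75.4 units) and miR-219-5p (41.7 units). P13, which had the highest miR-122-5p, was the highest array for miR-128-3p (347 units) and miR-7a-5p (61.8 units).

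The 3 further epithelial miRs miR-205-5p, miR-182-5p and miR-183-5p were detected on no array. MiR-203-3p, known from the epidermis, was detected on P13, P14, P17, P18 and P19 with 4.43 to 8.91 units, and miR-96-5p on P14, P16 and P20 with 4.92 to 7.67 units. The arrays with miR-203-3p and with the epithelial marker miRs did not coincide, since P20 held miR-141-3p and miR-200c-3p but not miR-203-3p. Among the callus markers, 8 of the 15 were higher and 1 lower in the Nonunion group at an unadjusted limma p under 0.05 (median log2 difference 0.68, against 0.15 over the 310 tested miRs, of which 9.68% were higher and 4.19% lower). None of the 9 passed adjustment (limma, adjusted p of 0.288 to 0.346). The 8 were all 4 cartilage miRs and all 4 mesenchymal miRs, and the lower one was miR-223-3p. The list was chosen with earlier results of these data known, and arms of the same hairpin were counted singly. These counts are thus no independent support for a group difference.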

How the data were processed

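Callus RNA of 8 separate mice was measured on one-colour Agilent miR arrays. Per the file headers, the authors used Agilent Feature Extraction 10.10.1.1 (grid build mm9) and deposited background-corrected intensity per spot, a merged intensity with a detection call per miR, and a quantile-normalized log2 table. The members and lists were chosen with earlier results of these data known.

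Spot intensities without outlier flags were averaged per miR and array and permuted over 70 arrangements. The methods' fit used log2, quantile-normalized merged signals of miRs detected on all arrays. The fit over all 1079 murine miRs used spot medians corrected with normexp (offset 50), log2 and quantile normalization. Both used limma 3.58.1 (Benjamini-Hochberg) in R 4.3.3, and the fit over all 1079 murine miRs was tested on simulated data. Named miRs were the markers, their partner arms and lists of further tissue and callus miRs. MiR-301b-3p, miR-30d-3p and miR-467d-3p were named, and array columns (from the scanner's array numbers) compared, after seeing the data. Alternatives were other spot summaries, background corrections, normalizations and filters, the authors' table, and leaving out each array. The number of arrays limits the precision. MiR-486-5p was not analysed here.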

Additional observations from a re-analysis of the deposited data

Results flagged for a closer look

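In each group of 4 arrays, the highest or lowest value was set against the other 3 for the marker miRs, miR-9-3p and the listed tissue and callus miRs detected on all arrays. Of 62 groups tested, 7 had a value whose gap to its nearest neighbour exceeded the critical share of the range for 4 values, where chance gives about 1 in 20. All 7 values lay on P14 or P20. In the Nonunion group, P14 was lowest for miR-375-3p (mean spot signal -6.20 units, others -4.30 to -4.05 units, all undetected), miR-199a-5p (1523 units, others 1948 to 2000) and miR-214-3p (900.4 units, others 1246 to 1302), and highest for miR-451 (9110 units, others 2846 to 3895). In the Union group, P20 was highest for miR-142-3p (6822 units, others 1742 to 2372), miR-223-3p (12898 units, others 3276 to 3721) and miR-192-5p (32.4 units, others 16.9 to 19.4).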

How the results depend on the processing

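Detection depended on the strictness of the call and on P20. With at least 20 of 40 spots well above background, 1 marker miR was detected on some array in place of 4, and with at least 1 such spot 6 were. Leaving out each array in turn gave 1 to 4, with 1 without P20. The shares of all murine miRs in these settings were not determined, so the counts cannot be set against a background. With all miRs detected on at least 1 array admitted to the fit of the methods, 4 marker miRs were tested in place of 0. In the fit over all murine miRs, marker miRs with an unadjusted limma p under 0.05 numbered 0, but 5 with no normalization, 1 with processed signals plus 1, 1 with the authors' value table, 1 with the slide column as a block (miR-429-3p, limma p of 0.0332, chosen after seeing the data) and 0 to 1 with an array left out. The log2 difference of miR-122-5p was 2.23 with processed signals (limma p = 0.0254, adjusted p = 0.497) and 1.39 in the authors' table (limma p = 0.0207, adjusted p = 0.279). Calls over all 1079 murine miRs numbered 147 in the main setting and also 147 with the authors' value table. They numbered 69 with the 75th percentile, 268 with no normalization, 96 with processed signals and 197 with the slide column as a block. With an array left out they ranged from 96 (without P15) to 237 (without P19). The settings without P13 and without P20, each with 1 marker miR called, lay within this range.

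Spot signal calls (1, miR-200c-3p) ranged from 0 to 2 with an array left out. MiR-200c-3p lost its call without P20 or any single Nonunion array and with the median over spots. MiR-124-3p passed without P13, miR-9-5p without P19 and miR-141-3p with the median over spots. In the main setting 11.4% of all murine miRs passed, and the shares without P13 and with the median over spots were not determined. With the median signal minus local background, differences turned to 0.265 (miR-9-5p), 3.48 (miR-124-3p), 3.22 (miR-375-3p), 0.531 (miR-141-3p) and 3.34 units (miR-200b-3p, exact permutation p = 0.0286), and 12.7% of all murine miRs were then called higher in the Nonunion group. Other reversals were small: miR-200a-3p and miR-429-3p with -0.636 and -0.572 units after subtracting negative controls and -0.108 and -0.0326 units with outlier spots kept, miR-200b-3p and miR-429-3p with 0.0254 and -0.124 units by the median over spots, and miR-141-3p with log2 differences of 8.6e-05 (75th percentile) and 0.0035 (no normalization). With an array left out, spot differences spanned -0.330 to 0.375 (miR-200a-3p), -1.05 to 0.0564 (miR-200b-3p) and -0.209 to 0.646 units (miR-429-3p), and log2 differences -0.0485 to 0.00097 (miR-141-3p), -0.0027 to 0.0166 (miR-200b-3p) and -0.0024 to 0.0110 (miR-375-3p). The causes were not tested. Specimen numbers differ between the groups, so the slide column was the only pairing tried.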
